A study of Homo sapiens with 3 samples.

Results

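Processed pseudogenes of ribosomal protein genes were examined in RNA-seq counts of DU145 cells, an androgen-independent human prostate cancer line. They were selected by their annotation and by their counts: rows of biotype processed_pseudogene, with the symbol of a ribosomal protein gene followed by P and a number, and with a total of 100 counts or more over the 3 libraries. By this rule 42 of the 58735 listed genes were taken. The contrast between the libraries was not used to choose them, but a high level was, so their abundance is a description and not a result.

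The series holds 1 control library from DU145 cells, for which the methods of the study name the empty pLKO.1 vector. The other 2 libraries are from DU145 cells transduced with pLKO.1 lentivirus carrying an shRNA against PD-L1 (gene CD274). The methods name these cells PD-L1sh1/2, read here as a different shRNA in each, but print the sequence of only 1. The lines were stable, whether they are pools or clones is not given in the sources used here, and mRNA was enriched with oligo(dT) beads before sequencing. The libraries are called by their labels, control and PD-L1 knockdown 1 and 2, because CD274 was not lower in the labelled knockdowns: its counts were 204 in the control, 213 in PD-L1 knockdown 1 and 224 in PD-L1 knockdown 2. RBM45 stands in the heading of the counts of the control, and the series text names the BCPAP line. The totals were 14733088, 14738298 and 15786457 counts. Of the markers checked, the epithelial keratin KRT8 held 16068 to 19056 counts, whereas KLK3, which encodes prostate-specific antigen, was at 0 counts in every library, which allows up to 0.204 CPM (counts scaled to a common library size). PTPRC, a leukocyte marker, had 0, 3 and 1 counts.

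A processed pseudogene arises when a mature mRNA is copied back into DNA by the LINE-1 machinery and inserted elsewhere in the genome. The copy has no introns and usually no promoter of its own, and it starts as a near-perfect duplicate of the coding sequence of its parent. Ribosomal protein mRNAs are short and abundant, and they left many such copies in the human genome. A read from such a copy and a read from the parent mRNA can therefore be hard to tell apart. The counting tool, the strand setting and the treatment of reads that match several places are not given in the sources used here, so every count below is the count assigned to a row, and its origin was not tested.

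The rows of this kind were mostly empty. Of the 1083 rows with these symbols and this biotype, 705 had 0 counts in all libraries, 256 had 1 to 9 counts, 80 had 10 to 99 and the 42 selected ones had 100 or more. The 42 held 46632 counts, which was 93.5% of the 49849 counts on all 1083 rows. Just inside the threshold were RPS3AP26, with 34, 48 and 42 counts in the control and in PD-L1 knockdown 1 and 2, RPSAP12, with 22, 32 and 52, and RPL41P5, with 21, 21 and 59. Just outside it were RPS19P3, with 36, 26 and 28 counts, RPL21P75, with 28, 34 and 24, and RPSAP9, with 29, 25 and 29.

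The 42 pseudogenes lay on 19 chromosomes and came from 28 parents. Every one was annotated as a single exon, of 78 to 1284 bases with a median of 612. RPSA, which encodes a small subunit protein also known as the laminin receptor precursor, had 5 of them. RPS7 and RPL13A had 3 each, RPS2, RPL7, RPL10, RPL41, RPL24 and RPS3A had 2 each, and the other 19 parents had 1.

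The sequences show how close the copies stayed to the parents. Stretches of 60 bases are given for 4 of the most counted pseudogenes and for RPL29P11, which was added after its values were seen because it changed most. Each stands above the same stretch of the parent's coding sequence, in the GRCh38 build with GENCODE 29 transcripts, and capitals mark the bases that differ. Positions are those in the best-matching coding transcripts RPS2-201, RPL7-201, RPLP0-203, RPL3-202 and RPL29-201, and may differ in other transcripts. RPL3-202 has 351 codons.

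RPS2P5, chr12:118246856-118246915, plus strand: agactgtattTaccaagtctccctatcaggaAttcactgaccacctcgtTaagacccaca
RPS2, bases 773 to 832 of its coding sequence: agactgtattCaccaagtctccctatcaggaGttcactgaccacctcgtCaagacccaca
RPL7P1, chr5:150094361-150094420, plus strand: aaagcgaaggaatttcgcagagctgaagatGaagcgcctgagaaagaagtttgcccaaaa
RPL7, bases 60 to 119 of its coding sequence: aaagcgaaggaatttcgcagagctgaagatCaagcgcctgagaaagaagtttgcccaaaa
RPLP0P6, chr2:38482424-38482483, plus strand: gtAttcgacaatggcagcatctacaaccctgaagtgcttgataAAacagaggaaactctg
RPLP0, bases 574 to 633 of its coding sequence: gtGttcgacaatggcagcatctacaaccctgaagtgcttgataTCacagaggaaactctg
RPL3P4, chr14:98973193-98973252, minus strand: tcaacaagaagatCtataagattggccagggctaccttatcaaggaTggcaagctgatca
RPL3, bases 683 to 742 of its coding sequence: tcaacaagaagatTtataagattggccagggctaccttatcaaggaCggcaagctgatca
RPL29P11, chromosome 3, minus strand: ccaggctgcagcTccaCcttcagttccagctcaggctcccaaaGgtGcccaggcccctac
RPL29, bases 405 to 464 of its coding sequence: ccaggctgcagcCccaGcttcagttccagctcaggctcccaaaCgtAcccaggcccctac

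Each stretch was the one with the most substitutions among those inside the parent's coding sequence and away from gaps. These stretches differed from the parent at 1 to 4 of 60 bases. Over their whole lengths the 42 pseudogenes were 98.8% identical to the parent in the median, with a minimum of 84.1% in RPL23AP64, and 31 of them were at least 98% identical. The longest run of bases shared exactly with the parent was 46 to 483 bases long, with a median of 188, and it reached 100 bases in 36 of the 42.

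Shared sequence was also measured by cutting each pseudogene into all its words of 31 bases and asking which of them occur in transcripts of the parent. The median pseudogene had 68.7% of its words in the parent, and 34 had at least 50%. RPL21P16, RPL39P3, RPL41P1, RPL41P5 and RPS28P7 were identical to the parent along their whole annotated length, so no read inside them could be assigned by its sequence alone. RPL3P4, a fragment of 423 bases, had 84.2% of its words in RPL3 and every word in some other gene. At the other end, RPL23AP64 had 7.41%, RPL5P34 28.1%, RPL12P14 28.7%, RPSAP47 31.1% and RPL24P8 31.8% of their words in the parent. For 35 of the 42 the named parent came first by shared words, in RPL41P1 tied with RPL41P2. In RPL41P5, which is not among the 35, RPL41 tied with RPL41P1. RPL12P14 was an exception, with 38.7% of its words in transcripts of NBEAL1, a protein-coding gene with 785, 676 and 656 counts.

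Many copies kept an open frame. In 30 of the 42, the longest open reading frame reached at least 95% of the parent's codons. Among the 32 copies that aligned without a gap there were 278 substitutions, of which 117 were synonymous, 154 changed the residue and 5 made a stop codon. The stops lay in RPL4P4, RPL5P34, RPL24P8 and RPL26P19, first at codons 24, 179, 99 and 45. RPL12P14 and RPL23AP64 had the shortest frames relative to the parent, 8.48% and 13.5% of its codons.

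By position, 21 of the pseudogenes lay outside all other annotated genes, 18 lay only in introns of other genes, and 3 (RPL10P16, RPSAP19 and RPSAP58) overlapped an exon of another gene with at most 4 counts in any library. An intron of a protein-coding gene held 14 of them, 6 on the strand of that gene and 8 on the opposite one. RPL18AP3 lay in an intron of TXNRD1, a highly counted gene with 31449, 31550 and 30300 counts, on the same strand.

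RPS2P5 had the most counts of the set. It holds a complete copy of the frame of RPS2, a protein of the small subunit, at chr12:118246084-118246962 on the plus strand, inside an intron of TAOK3 and opposite to it (gene identifier ENSG00000240342). Its counts were 2468 in the control, 3691 in PD-L1 knockdown 1 and 4208 in PD-L1 knockdown 2, which was 22.2% of all counts on the set. RPS2P46, another copy of RPS2, had 1146, 1272 and 1324 counts. RPL7P1, a complete copy of the frame of the large subunit gene RPL7, had 1069, 1081 and 1067 counts, nearly level over the libraries. RPLP0P6, a copy of the gene of the ribosomal stalk protein RPLP0, had 864, 960 and 1022 counts.

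The other abundant copies had fewer counts. RPL3P4 derives from RPL3, whose protein lies near the peptidyl transferase centre, and had 593, 822 and 815 counts. RPL18AP3 had 644, 704 and 749 counts, RPS7P1 had 616, 673 and 744, and RPL7P9 had 697, 669 and 620. RPL13P12 had 566, 609 and 716 counts, RPSAP58 had 549, 573 and 582, and RPSAP15 had 468, 492 and 622. Of these, RPL7P9 had fewer counts in both labelled knockdowns than in the control. RPL13AP5 had 462, 558 and 544 counts, RPL10P16 had 356, 388 and 431, RPL15P3 had 291, 360 and 287, and RPSAP47 had 204, 274 and 277. The 12 most counted pseudogenes held 75.6% of the counts of the set, and the median sum over the 3 libraries was 428.

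**Figure D1:**
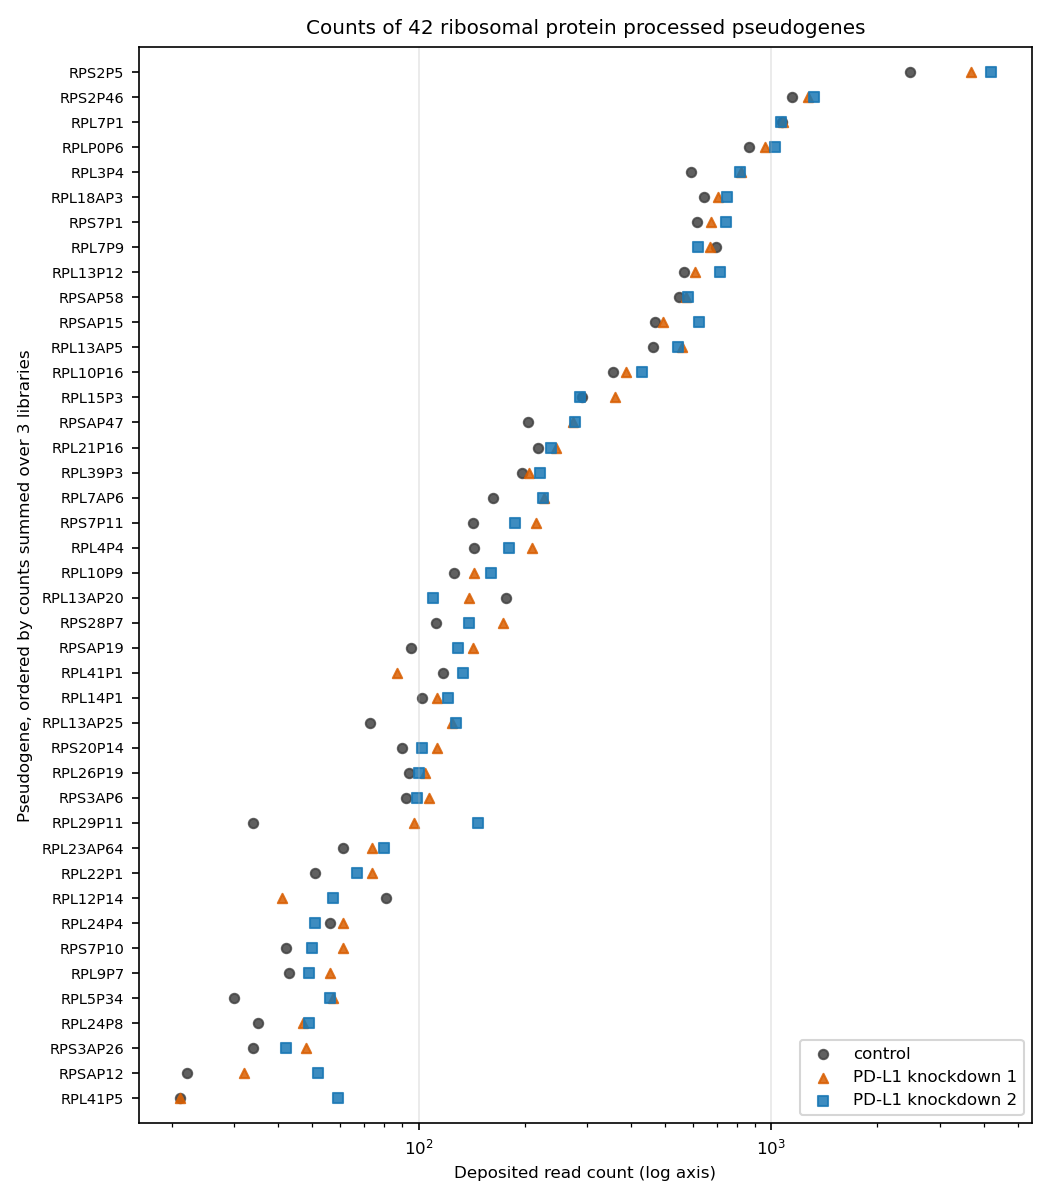
Deposited read counts (log axis) of the 42 pseudogenes in the control (circles), PD-L1 knockdown 1 (triangles) and PD-L1 knockdown 2 (squares), ordered by their sum. RPS2P5 stands at the top with 2468 to 4208 counts, and RPL29P11 has its control library, at 34 counts, well to the left of the others, at 97 and 147.

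Together the 42 pseudogenes took 0.0913% of all counts in the control (exact 95% binomial interval 0.0897% to 0.0928%), 0.110% in PD-L1 knockdown 1 (0.108% to 0.111%) and 0.108% in PD-L1 knockdown 2 (0.106% to 0.110%). The intervals cover counting error only, here and below. Without RPS2P5 the shares were 0.0745%, 0.0845% and 0.0813%, so the control was still lowest. The 28 parents together took 1.36%, 1.54% and 1.5% of all counts, again lowest in the control. Of the counts on the set and its parents together, the pseudogenes held 6.28%, 6.64% and 6.70%. With 1 control library no spread between controls is known, and these differences were not tested.

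Levels were compared with the parents as counts per kilobase. With the gene lengths listed in the files the median ratio of pseudogene to parent was 0.171 in the control, 0.157 in PD-L1 knockdown 1 and 0.163 in PD-L1 knockdown 2. The listed length of a parent joins the exons of all its transcripts, however, and is far longer than its usual mRNA. With the length of the parent's best-matching coding transcript, an alternative chosen after the data were seen, the median ratio over the summed counts was 0.0484 in place of 0.170.

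This choice decided whether any copy exceeded its parent. With the listed lengths RPL39P3 (ratio 2.16) and RPS7P1 (1.45) were above their parents per kilobase, followed by RPL26P19 (0.825), RPL18AP3 (0.666) and RPL22P1 (0.570). With the coding transcript the same 5 had ratios of 0.404, 0.182, 0.173, 0.126 and 0.253, and none of the 42 was above its parent. RPL39P3, a copy of the gene of a very small large subunit protein, had 196, 205 and 221 counts, beside 1262, 1411 and 1286 on RPL39. RPL26P19 had 94, 104 and 100 counts, beside 629, 758 and 685 on RPL26, and RPL22P1 had 51, 74 and 67, beside 1261, 1303 and 1284 on RPL22.

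The lowest ratios belonged to RPSAP12 (0.0125 with the listed lengths), RPL5P34 (0.0309), RPL4P4 (0.0367), RPL7AP6 (0.0403) and RPL13AP25 (0.0416). RPL4P4 had 144, 210 and 181 counts, RPL7AP6 had 163, 227 and 225, and RPL13AP25 had 73, 124 and 128. Their parents had high counts, 20539 to 21785 counts on RPL4, 12770 to 15036 on RPL7A and 8220 to 11728 on RPL13A. All 3 copies had fewer counts in the control than in either labelled knockdown.

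Copies that shared more words with the parent had higher levels relative to it. With the coding transcript length, the median ratio was 0.107 in the 5 copies with every word in the parent, 0.0998 in the 9 copies with 80% or more, 0.0475 in the 20 copies with 50% to 80%, and 0.0242 in the 8 copies below 50%. Over the 42 pseudogenes Spearman's rank correlation between the share of words and this ratio was 0.60. This is a description across genes that share libraries, parents and reads, and genes are not independent replicates. RPL23AP64 departed from it, with 7.41% of its words in RPL23A and a ratio of 0.0810 (61, 74 and 80 counts). The best-matching transcript of RPL23A was long, however, at 1562 bases for 156 codons, and the ratio grows with that length. The same limit holds for other copies. For RPS28P7 (ratio 0.257) the transcript had 1326 bases for 69 codons, and for RPL22P1 (0.253) it had 2078 bases for 128 codons. With the listed lengths the rank correlation was 0.58. RPL41P5 also departed, with every word in RPL41 and a ratio of 0.0276. The rank correlation between the summed counts of pseudogene and parent was 0.57.

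**Figure D2:**
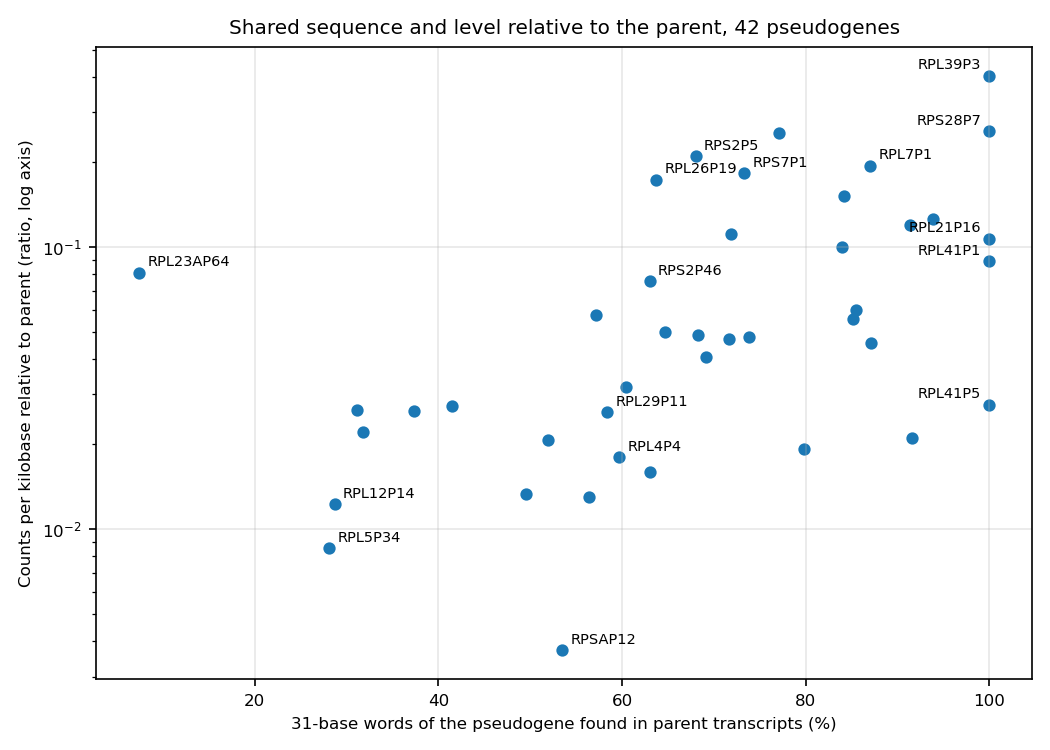
Share of the 31-base words of each of the 42 pseudogenes found in transcripts of its parent (x axis, %) against its counts per kilobase relative to the parent, summed over the 3 libraries and with the length of the parent's coding transcript (y axis, log scale). Points run from RPSAP12 at 0.00372 to RPL39P3 at 0.404, and 7 of the 8 copies with fewer than 50% of their words in the parent lie between 0.00856 and 0.0273.

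The next question was which pseudogenes differed between the libraries labelled PD-L1 knockdown and the control. RPL29P11 and RPS2P5 rose, and none of the 42 fell, at an adjusted p below 0.05 (edgeR quasi-likelihood test, Benjamini-Hochberg adjustment over 19849 genes). Among all genes tested 0.247% were called higher and 0.106% lower, beside 4.76% (2 of 42) of the set called higher. Of the 170 other processed pseudogenes with at least 100 counts, the rows most like the set, 4.12% (7) were called higher, close to the share in the set. This list is not a separate background, because it can hold copies of the same parents under other symbols. AL450405.1, a copy of RPL29 described below, is among the 7. At a fold threshold (unadjusted p below 0.05 and an absolute log2 fold change above 1) RPL29P11 alone was called, and it was higher. The background at this threshold was 1.54% higher and 0.942% lower. At an unadjusted edgeR p below 0.05 alone, 8 of the 42 were higher and 2 lower, against 6.82% and 4.92% of all genes. The 2 lower are near the background share. Among the 8 is RPL5P34, which reached 100 counts only through the labelled knockdowns, so its direction follows in part from the rule. Whether the 8 exceed the background share was not tested. DESeq2 with its own adjustment called 1 higher (RPS2P5) and 0 lower, and over all genes 3 higher and 3 lower, 0.0151% each way.

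The spread in this test came only from the pair of labelled knockdown libraries, read here as carrying different shRNAs, because the control has no replicate. With infinite prior degrees of freedom in the fit, that spread was pooled over genes. A pseudogene's own difference between the 2 libraries therefore did not set its p-value. The labels do not say that libraries are separate cultures, so the p-values measure this pooled spread between these libraries.

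Across the set the log2 fold changes leaned upwards. They were above 0 in 36 and below 0 in 6 of the 42, with a median of 0.21 and quartiles of 0.11 and 0.42. Without RPSAP12, RPL41P5 and RPL5P34, which reached 100 counts only through the labelled knockdowns, 33 were above 0 and 6 below, with a median of 0.20. In the same fit the 28 parents had 25 above 0 and 3 below, a median of 0.14 and 0 calls at the adjusted p (edgeR and DESeq2), with 7 higher and 0 lower at an unadjusted p below 0.05, beside the same 6.82% and 4.92% of all genes. The 170 other processed pseudogenes with at least 100 counts had 108 above 0 and 62 below, a median of 0.12, and 7 called higher and 0 lower by edgeR. At an unadjusted p below 0.05 they had 23 higher and 4 lower, and DESeq2 called 1 higher and 0 lower. All 19849 genes had 9960 above 0 and 9889 below (50.2% above), with a median of 0.00. In single libraries, 33 of the 42 were above the control in both labelled knockdowns, 3 were below it in both and 6 were above it in 1 of them. The parents were above the control in both for 22 of 28. The share of all genes above the single control in both is not given here, so these counts stand as a description.

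**Figure D3:**
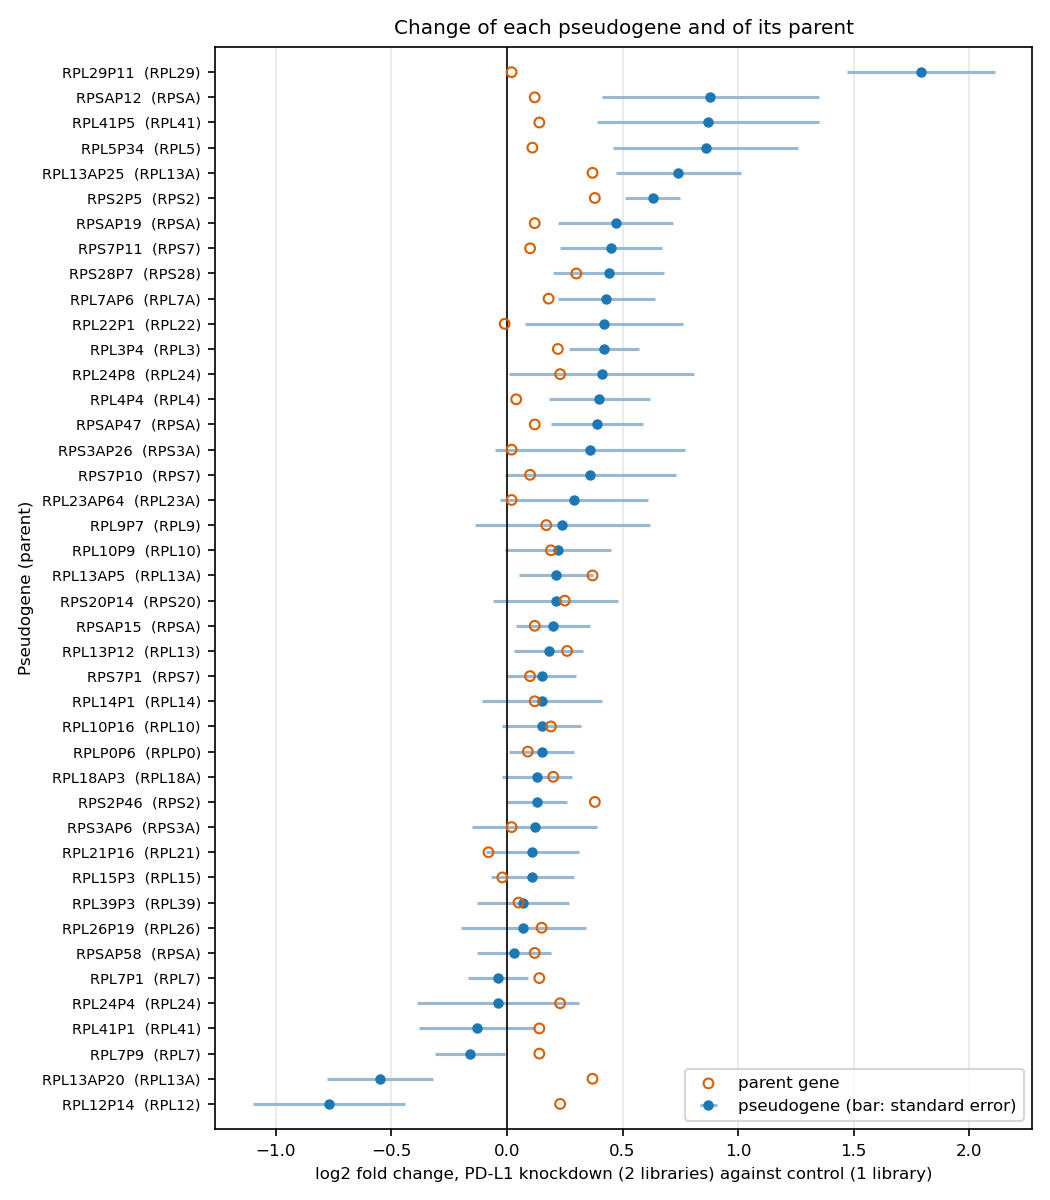
Fitted log2 fold change of each pseudogene (filled circles, bars are standard errors) and of its parent (open circles), PD-L1 knockdown (2 libraries) against control (1 library). RPL29P11 lies at 1.79 with its parent at 0.02, and RPL12P14 at the bottom lies at -0.77 with its parent at 0.23.

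RPL29P11 changed most. It is a copy of RPL29, a large subunit gene whose protein also binds heparin, on chromosome 3 (gene identifier ENSG00000224858). Its counts were 34 in the control, 97 in PD-L1 knockdown 1 and 147 in PD-L1 knockdown 2, or 2.31, 6.61 and 9.31 CPM. Both labelled knockdowns were above the single control library. The fitted log2 fold change was 1.79 (SE 0.32, edgeR adjusted p = 8.49e-05). DESeq2 gave the same fold change with an adjusted p of 1.00, so the call rests on the tool.

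The parent did not pass the test. RPL29 had 5079, 5098 and 5573 counts, nearly level (log2 fold change 0.02, SE 0.11, edgeR adjusted p = 0.957). The odds of a count falling on RPL29P11 rather than on RPL29 were 2.84 times those of the control in PD-L1 knockdown 1 (exact conditional 95% interval 1.90 to 4.34) and 3.94 times in PD-L1 knockdown 2 (2.69 to 5.91).

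Other copies of RPL29 share sequence with RPL29P11. It had 58.4% of its words in RPL29 and 45.9% in AL450405.1, an RPL29 processed pseudogene on chromosome 6 that bears the symbol RPL29P4 in the reference table of gene names. AL450405.1 is outside the set because of its listed symbol, and it was singled out after its values were seen. It had 363, 713 and 820 counts, about doubling in both labelled knockdowns (ratios of 1.97 and 2.11 to the control), with a log2 fold change of 1.03 (SE 0.16, edgeR adjusted p = 6.05e-07). It is 97.3% identical to RPL29, with 63.3% of its words there. Against RPL29, its odds were 1.96 and 2.06 times the value in the control. The 2 copies thus moved the same way while RPL29 was nearly level, and reads they share were not separated. The copies AC018475.1 and RPL29P12 also shared many words with RPL29P11, 50.9% and 47.2%, but had at most 9 counts in any library.

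RPS2P5 rose less in fold but on far more counts. From 167 CPM in the control it was at 251 and 266 CPM in the labelled knockdowns, which is 0.63 on the log2 scale (SE 0.12, edgeR adjusted p = 0.000245). DESeq2 also called it, with an adjusted p of 0.0236. RPS2 itself had 14985, 19005 and 21228 counts, higher in both labelled knockdowns, but with a log2 fold change of 0.38 (SE 0.11) its adjusted p in edgeR was 0.0684. The odds of RPS2P5 against RPS2 were 1.18 times those of the control in PD-L1 knockdown 1 (1.12 to 1.25) and 1.20 times in PD-L1 knockdown 2 (1.14 to 1.27).

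The other copy of RPS2 went the opposite way relative to the parent. RPS2P46, with a log2 fold change of 0.13 (SE 0.13, edgeR adjusted p = 0.730), had odds against RPS2 of 0.875 (0.805 to 0.951) and 0.816 (0.751 to 0.886) times those of the control. RPS2P5 against RPS2P46 gave 1.35 (1.22 to 1.48) and 1.48 (1.34 to 1.62). RPS2P5 had 68.0% of its words in RPS2 and 51.1% in RPS2P46, and 11.7% in no other gene. TAOK3, around RPS2P5, had 1122, 1168 and 1069 counts and lay at -0.05 on the log2 scale.

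**Figure D4:**
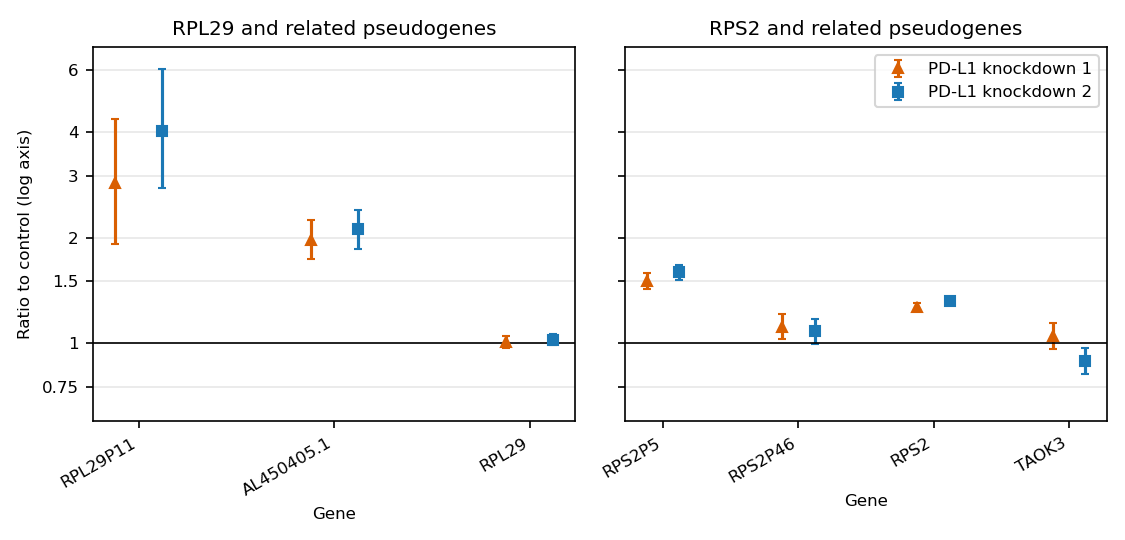
Ratio to the control (log axis, scaled by effective library size) of RPL29P11, its relative AL450405.1 and the parent RPL29 (left), and of RPS2P5, RPS2P46, the parent RPS2 and the host gene TAOK3 (right), in PD-L1 knockdown 1 (triangles) and 2 (squares). Bars are exact 95% intervals for counting error only. RPL29P11 (2.87 and 4.04) lies above RPL29 (1.01 and 1.02), and RPS2P5 (1.5 and 1.59) lies above RPS2P46 (1.11 and 1.08).

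After RPL29P11 the largest fold changes were those of RPSAP12 and RPL41P5, both near the threshold of the set. Both reached 100 counts only through the libraries where they were high: with all libraries at the control's level their sums would be 67.5 and 64.4. Their upward direction thus follows in part from the rule and supports nothing. RPSAP12 (22, 32 and 52 counts) reached 0.88 on the log2 scale (SE 0.47, edgeR adjusted p = 0.456). RPL41P5 had 21 counts in the control and 21 in PD-L1 knockdown 1, and 59 in PD-L1 knockdown 2, so its log2 fold change, 0.87 (SE 0.48, edgeR adjusted p = 0.474), rests on 1 library, and its ratio to the control in PD-L1 knockdown 1 alone was 1.00. RPL41P1, the other copy of RPL41, had 117, 87 and 134 counts. The 2 copies have the same sequence over the length of RPL41P5.

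The smallest were those of RPL12P14, RPL13AP20 and RPL7P9, which did not pass the test. RPL12P14 had 81 counts in the control, above the 41 and 57 in PD-L1 knockdown 1 and 2, and lay at -0.77 on the log2 scale (SE 0.33, edgeR adjusted p = 0.319). RPL13AP20, with 177, 139 and 110 counts, lay at -0.55 (SE 0.23, edgeR adjusted p = 0.302). RPL13A, whose protein also takes part in silencing mRNAs in inflammation, had 8220, 10279 and 11728 counts, lowest in the control. RPL7P9 had a log2 fold change of -0.16 (SE 0.15, edgeR adjusted p = 0.720).

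Copies of 1 parent did not all move alike. RPL13AP25 had 73, 124 and 128 counts where RPL13AP20 had 177, 139 and 110, and the odds of RPL13AP20 against RPL13AP25 were 0.463 (0.316 to 0.676) and 0.355 (0.240 to 0.523) times those of the control. For RPL7P1 against RPL7P9 they were 1.05 (0.918 to 1.21) and 1.12 (0.976 to 1.29), intervals that hold 1. Of RPSA, the 5 copies together had 1338, 1514 and 1662 counts beside 11561, 12926 and 13071 on the parent. The 3 copies of RPS7 had 801, 949 and 982 beside 4180, 4667 and 4565. The 9 pseudogenes not described one by one (RPL10P9, RPS7P11, RPSAP19, RPL14P1, RPS20P14, RPS3AP6, RPL24P4, RPS7P10 and RPL9P7) had 42 to 143 counts in the control, 56 to 215 in PD-L1 knockdown 1 and 49 to 188 in PD-L1 knockdown 2. Their log2 fold changes ran from -0.04 to 0.47, and none was called.

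In 23 of the 42 the 95% interval of the odds against the parent held 1 in both labelled knockdowns. Such an interval does not show that a pseudogene and its parent changed alike. The interval lay above 1 in both for RPS2P5, RPL29P11 and RPL5P34, and below 1 in both for RPS2P46, RPL7P1, RPL7P9, RPL13AP20 and RPL12P14. RPL5P34 derives from RPL5, whose protein binds MDM2 when it is free of the ribosome. It too passed the threshold only through the labelled knockdowns, with a sum of 92.0 if all libraries were at the control's level, so its place in this list follows in part from the rule. It had 30, 57 and 56 counts, low in the control alone, beside 5964, 6616 and 6700 on RPL5, and lay at 0.86 on the log2 scale (SE 0.40, edgeR adjusted p = 0.372). Over the 42 pairs Spearman's rank correlation between the log2 fold changes of pseudogene and parent was -0.04, given as a description of genes measured in the same libraries.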

How the data were processed

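Counts of DU145 mRNA libraries, 1 control and 2 labelled PD-L1 knockdown, were used as the authors deposited them, without normalization. The deposited FPKM equalled the counts over gene length, scaled by a constant of the library, and entered only as an alternative. The submitters' processing notes name Bowtie2 2.0.6, TopHat2 2.0.9, Cufflinks 2.1.1 and Cuffdiff 2.1.1 without a role. Gene identifiers and lengths were those of GENCODE 29 on GRCh38. The members and lists were chosen with earlier results of these data known.

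Genes of 10 or more counts in total entered the test with edgeR 4.0.16 (TMM, glmQLFit, glmQLFTest) in R 4.3.3. The fit had 1 residual degree of freedom, infinite prior degrees of freedom and a common dispersion of 0.00719. The script was tested on simulated data. Intervals were exact at 95% and cover counting error only, since PCR copies of a molecule cannot be recognized. 3 counts equal 0.190 to 0.204 CPM. Sequences came from GENCODE transcripts, aligned with edlib 1.3.9.post1 in Python 3.11.15. An alignment gap was kept 5 or more bases away from printed stretches.

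Named were the 15 pseudogenes with most counts, those called, the 5 highest and 5 lowest per kilobase against the parent and by shared words, the 3 highest and 3 lowest by fold change, the 3 rows on each side of the threshold, and the 5 parents with most members. Alternatives were DESeq2 1.42.0 and its size factors, library totals, no filter beyond 1 count, a length correction, each knockdown library left out, other count thresholds, no exon overlaps and FPKM. No columns of the authors' own comparisons were used. Some markers and neighbouring genes, and a stretch of sequence, are not reported here.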

Additional observations from a re-analysis of the deposited data

How the results depend on the processing

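The 2 calls of higher pseudogenes and the 0 of lower ones were the same with DESeq2's size factors, with library totals alone, with no filter beyond 1 count and with the length trend removed. The DESeq2 Wald test called 1, losing RPL29P11. Over all genes the calls numbered 70 with edgeR, 51 with no filter, 52 with the length trend removed and 6 with the DESeq2 Wald test. Of 165 pairs of a named pseudogene and a tested alternative, 163 kept direction and call, and RPSAP58 reversed, to -0.05, when the length trend was removed. These pairs do not hold the fits with 1 labelled knockdown left out, where more small fold changes reversed. Without PD-L1 knockdown 1, RPL15P3 lay at -0.12, RPL41P1 at 0.10, RPL26P19 at -0.01 and RPSAP58 at -0.01. Without PD-L1 knockdown 2, RPL7P1 lay at 0.02. The median log2 fold change of 0.21 ran from 0.18 to 0.25 when each labelled knockdown was left out, which leaves 1 library against 1 and no test, and was 0.20 without RPS2P5 and RPL29P11 and also without the 3 pseudogenes that passed only through the labelled knockdowns, alternatives added after the data were seen. The other additions of that kind were leaving out RPS2P5 alone and the coding transcript length.

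Shares moved with the choice of members. The percentage of all counts (0.103 over all libraries) was 0.106 for the 67 pseudogenes with at least 30 counts, 0.0974 for the 28 with at least 300, 0.0959 without the 3 that overlap exons, 0.628 in FPKM and 0.0801 without RPS2P5. The percentage of the counts on pseudogenes and parents (6.55) was 5.74, 7.17, 6.12, 26.7 and 5.17 in the same order. The median ratio to the parent (0.170) was 0.101, 0.262, 0.155, 0.170 and 0.155, and 0.0484 with the coding transcript length. The FPKM values weigh short genes more by construction.

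No paired analysis was possible because the control is a single library whose label carries no replicate number. Without a control replicate its spread is unknown, and at 100 counts or fewer the counting intervals of a pseudogene span wide ratios.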

Other observations

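Rows with the same kind of symbol but the biotype transcribed_processed_pseudogene were outside the set. At 100 counts or more there were 8, singled out after their values were seen. RPL9P9 had 3795, 3996 and 3684 counts in the control and in PD-L1 knockdown 1 and 2, more than its parent RPL9 in every library, with 2735, 3257 and 3090, and 89.8% of its words lay in RPL9. RPL31P11 had 1441, 1245 and 1268 counts, highest in the control, where RPL31, with 2265, 2962 and 2955, was lowest. RPS10P7 had 70, 79 and 76 counts beside 49, 33 and 57 on RPS10. Few words of these rows lay in the parent, 1.37% for RPL31P11 and 4.05% for RPS10P7, so their counts are not a measure of a copy against its parent. None of the 8 passed the adjusted threshold in edgeR, and their unadjusted p-values ran from 0.057 to 0.917.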
